A study of Danio rerio with 16 samples.

Results

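The windows described here are CpG-dense stretches of the zebrafish genome that were almost free of DNA methylation in 4 and 7 hpf embryos (hours post fertilization) and carried an intermediate level by 36 hpf. The genome was divided into windows of 500 bp, and 304530 windows held at least 10 CpGs measured in both replicate tables and at least 20 calls in each of the 8 groups. A methylation call is 1 read covering a CpG, and the level of a window is its methylated calls as a percentage of all its calls. Of these windows, 30446 were below 10% at both 4 and 7 hpf, with primordial germ cells (PGCs) and somatic cells summed. Among those, 682 were at least 15 percentage points higher at 36 hpf than at 4 hpf, and they are called gaining windows below. A further 974 gained 5 to 15 points, and 28790 gained under 5 points and serve as the comparison set of stable windows. The levels at 4, 7 and 36 hpf selected the gaining windows, so windows were chosen by these levels, which are given as a description and were not tested. Beyond the minimum of 10 CpGs and of 20 calls in each group, the rule did not use the methylation level at 24 hpf, the difference between PGCs and soma, CpG number or position.

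Whole-genome bisulfite sequencing was performed on PGCs, the embryonic precursors of eggs and sperm, and on somatic cells, sorted from the same kind of embryo at 4 stages (4 hpf, 7 hpf, 24 hpf, 36 hpf). All embryos, those that gave the soma included, carried the kop-egfp-f-nanos3′UTR transgene, which marks PGCs with EGFP for sorting by FACS, and the methods give the line a cry:dsred cassette as well. No mutant was used. The methods state that embryos older than 24 hpf were kept in N-phenylthiourea to block pigment, which would cover the PGCs and soma of 36 hpf, so this agent and the last stage cannot be told apart. The cell types and stages make 8 groups with 2 libraries in each, 16 in all, with 1 library of each group per table, and the soma of a stage is a mixture of all the tissues that were sorted with it. The methods call the 4 hpf replicates technical, so a spread between them may cover technical variation alone. Depth ranged from 25742797 calls (soma, 4 hpf, replicate 1) to 250228430 calls (PGC, 7 hpf, replicate 2). At the lambda DNA listed in the table of replicate 1, which carries no methylation and so gives the rate of false methylated calls, 0.233% to 0.452% of calls were methylated. The table of replicate 2 holds only 50 to 221 lambda calls per library, of which 0 to 6 were methylated, too few to measure the rate there. At the stable windows the summed level lay between 0.666% and 0.912% in all 16 libraries. These windows were chosen for low early levels and a small gain in the same libraries. This narrow range follows in part from that choice and is no independent check of the libraries. Expression was not measured in these files, so the labelled cell types could not be checked against marker genes here. The paper itself estimated a high purity of the sorted PGCs and reported germline markers enriched in PGC over somatic RNA.

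Cytosine methylation in vertebrates is placed at CpG sites by DNA methyltransferases, and most CpGs of the zebrafish genome carry it in nearly every cell. CpG-dense stretches, many of them at gene starts, are usually kept free of it, in part because chromatin marks of open promoters repel the enzymes that add it. A minority of such stretches gain methylation as the embryo leaves pluripotency, and promoters of germline genes are a known example in vertebrate somatic tissues. Genes at the windows are not named because no annotation of the build of the tables, danRer10, was used here.

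The gaining windows stayed near the floor at 4 and 7 hpf and carried most of their later methylation by 24 hpf. The median level over the 682 windows, PGC and soma summed, was 2.75% (4 hpf), 4.26% (7 hpf), 22.7% (24 hpf) and 29.3% (36 hpf). At 36 hpf the middle 50% of windows lay between 23.0% and 38.7%, and the highest single window reached 73.5%. The gain was therefore partial at nearly every window. Summed over all windows, the level in PGCs was 3.27% ± 0.30 (4 hpf), 4.31% ± 0.39 (7 hpf), 20.8% ± 1.61 (24 hpf) and 31.2% ± 2.32 (36 hpf; SD, n = 2 libraries). In soma it was 3.34% ± 0.03 (4 hpf), 4.94% ± 0.67 (7 hpf), 26.6% ± 1.32 (24 hpf) and 30.9% ± 0.45 (36 hpf; SD, n = 2). In both cell types every library of 24 and 36 hpf lay above every library of 4 and 7 hpf. The stable windows, selected for their small gain, had a median of 0.52% at 4 hpf and 0.52% at 36 hpf, so the gaining windows already started higher.

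**Figure D1:**
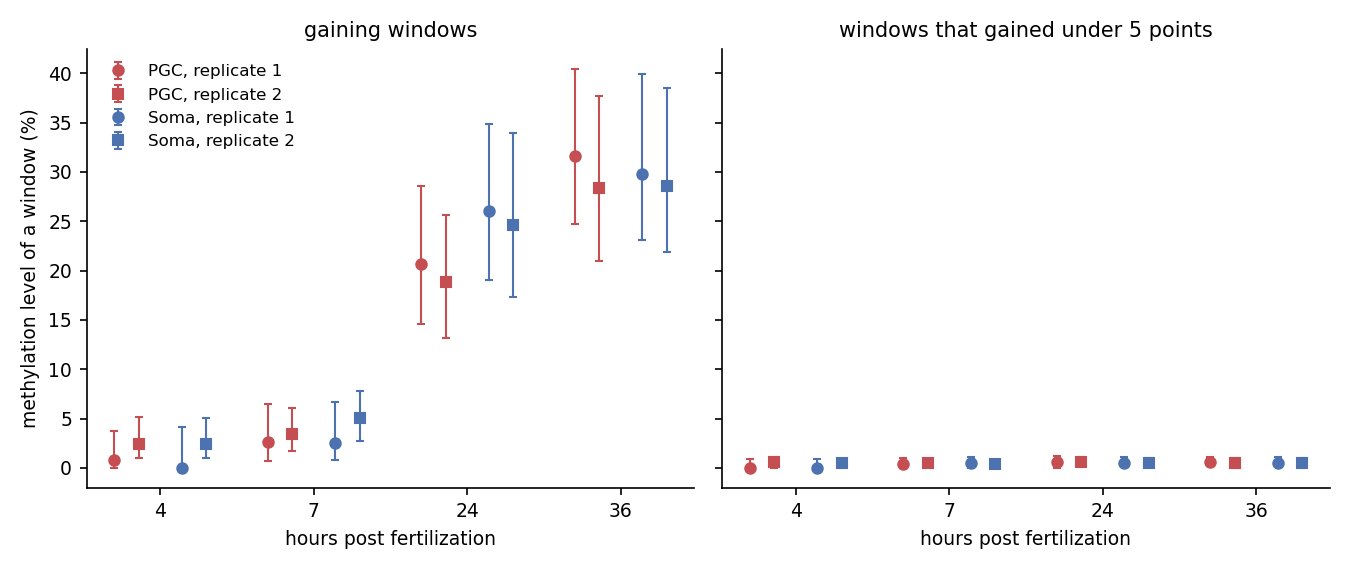
Methylation level (%) of gaining windows (left) and stable windows (right) against stage in hours post fertilization, with 1 point per library at the median over windows and bars from the 25th to the 75th percentile. Library medians of the gaining windows lie between 0 and 5.07% at 4 and 7 hpf, between 18.8% and 25.99% at 24 hpf and between 28.4% and 31.6% at 36 hpf.

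The gain was then measured in libraries whose levels had no part in choosing the windows. When the rule was applied to the table of replicate 1 alone, 550 windows were chosen, and their median level in replicate 2 was 3.24% (4 hpf), 4.71% (7 hpf), 21.4% (24 hpf) and 27.2% (36 hpf). The 658 windows chosen in replicate 2 had medians of 1.69%, 2.99%, 23.4% and 29.8% in replicate 1 at these stages. Late calls (24 and 36 hpf) were compared with early calls (4 and 7 hpf) in the second table with Fisher's exact test, two-sided, adjusted by the Benjamini-Hochberg method over all 304530 windows. Of the 550 windows, 506 (92.0%) were higher late than early in replicate 2 at an adjusted p under 0.01, against 1.98% of all windows. Of the 658 windows, 628 (95.4%) were higher in replicate 1, against 1.99% of all windows. Of the 304530 windows, 266264 were at 70% or more at 4 and 7 hpf and had little room to rise. The low shares over all windows follow in part from that, and the share among unmethylated windows alone is not given. In the opposite direction 7 of the 550 and 0 of the 658 windows passed. With PGC calls alone 484 of the 550 and 604 of the 658 passed, and with soma calls alone 489 and 572. This test compares the reads of a single table, with 1 library per group. It treats reads as independent molecules, so its p covers counting error only. The methods call the 4 hpf replicates technical, so the 4 hpf calls of the second table may not be independent of the choice.

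Most gaining windows gained in both tables and in both cell types. The summed gain of these same libraries selected the windows, so part of this agreement follows from the rule. The gain was 15 points or more in both tables taken separately at 573 of the 682 windows (84.0%), and in both PGCs and soma at 596 (87.4%). It reached 15 points in PGCs but not soma at 51 windows and in soma but not PGCs at 35, and no window gained under 5 points in either cell type. In all 4 combinations of cell type and table the level was higher at 36 than at 4 hpf at 662 windows.

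Timing was described as the share of the gain from 4 to 36 hpf that was present at 24 hpf. Its median over the 682 windows was 74.7%, with 64.3% and 83.1% as the quartiles. At 639 windows at least 50% of the gain was present by 24 hpf, and at 621 the step from 7 to 24 hpf was larger than that from 24 to 36 hpf. The median step was 1.18 points from 4 to 7 hpf, 18.3 points from 7 to 24 hpf and 6.99 points from 24 to 36 hpf. By 24 hpf 483 windows already stood 15 points above their 4 hpf level, and at 28 windows the 36 hpf level was below that of 24 hpf. In libraries that did not choose the windows the median share was 74.6% (511 of the 550 windows, those with a gain of at least 5 points) and 78.5% (642 of the 658 windows). Levels between 7 and 24 hpf were not measured, and the larger step also spans the longer interval.

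A smaller part of the gain was present at 24 hpf in PGCs than in soma, a difference between these libraries that was not tested over the windows. By 24 hpf the median share of the gain was 60.7% in PGCs, against 84.7% in soma, and it was smaller in PGCs at 570 of the 682 windows (83.6%). The tables gave 61.4% in PGCs and 86.8% in soma for replicate 1, and 61.7% in PGCs and 82.6% in soma for replicate 2. Between 24 and 36 hpf the median window gained 10.6 points in PGCs and 4.06 points in soma. The 36 hpf level was below the 24 hpf level at 20 windows in PGCs and at 127 windows in soma.

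**Figure D2:**
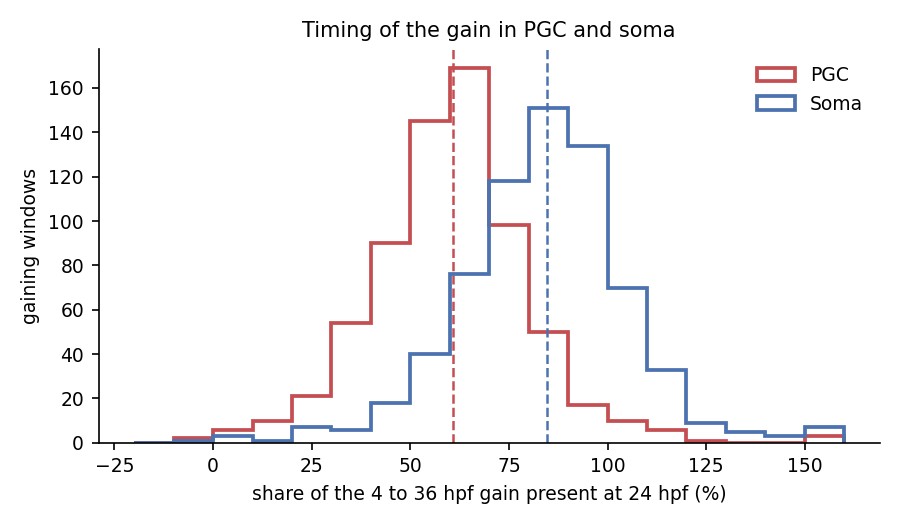
Number of gaining windows against the share (%) of their 4 to 36 hpf gain that was present at 24 hpf, for PGCs and soma with both libraries summed. Dashed lines mark the medians, 60.7% in PGCs and 84.7% in soma, and windows beyond the axis are drawn in the last bin on either side.

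At 24 hpf the gaining windows were mostly lower in PGCs than in soma, and at 36 hpf the median difference was near 0. At 24 hpf the median level was 20.6% and 18.8% in the PGC libraries (replicates 1 and 2), against 25.99% and 24.6% in the soma libraries, so the PGC and soma libraries did not overlap. PGC minus soma had a median of -5.75 points over the 682 windows, with -5.64 for replicate 1 and -5.65 for replicate 2. Of the 682 windows, 588 (86.2%) were lower in PGCs, against 41.4% of all windows. In libraries that did not choose the windows the median difference at 24 hpf was -5.06 points (chosen in replicate 1, measured in replicate 2) and -5.64 points (chosen in replicate 2, measured in replicate 1), and 78.7% and 75.8% of the windows were lower in PGCs. At 332 windows (48.7%) both PGC libraries lay below both soma libraries, against 11.3% of all windows. At 17 windows (2.49%) both PGC libraries lay above both soma libraries, against 21.4% of all windows. Over all 304530 windows, most of them heavily methylated, the median difference at 24 hpf had the other sign, 0.38 points. At the stable windows the 2 kinds of separation were about equally frequent at 24 hpf, 14.4% below and 14.4% above. At the windows that gained 5 to 15 points PGCs were below soma at 27.9% and above it at 5.65%.

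At 36 hpf the median level was 31.6% and 28.4% in the PGC libraries, against 29.8% and 28.6% in the soma libraries, and the groups overlapped. PGC minus soma had a median of 0.62 points, with 2.08 for replicate 1 and -1.25 for replicate 2, so its sign differed between the tables. Without PGC replicate 1 it was -1.23 points. Both PGC libraries lay below both soma libraries at 74 windows (10.9%), against 15% of all windows, and above them at 108 windows (15.8%), against 15.5% of all windows. At 7 hpf the median difference was -0.78 points, 0 in replicate 1 and -1.02 in replicate 2, and at 4 hpf it was 0 in both tables.

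**Figure D3:**
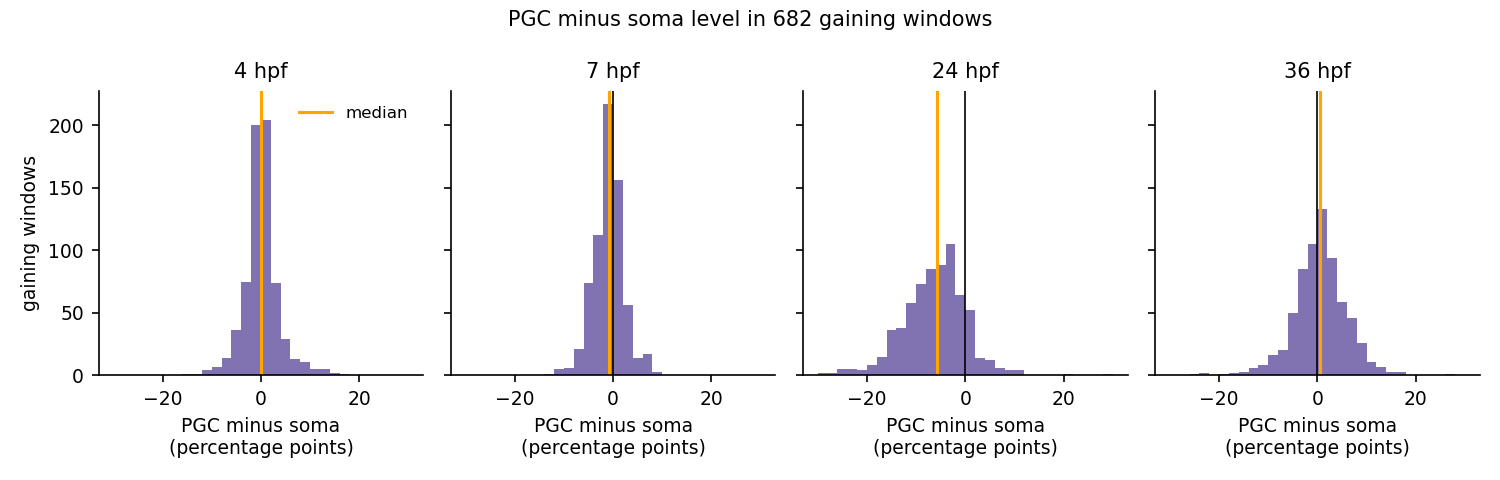
Number of gaining windows against PGC minus soma level in percentage points at each of the 4 stages, with the libraries of a group summed. The black line is at 0 and the orange line at the median, which is 0 (4 hpf), -0.78 (7 hpf), -5.75 (24 hpf) and 0.62 (36 hpf).

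No single gaining window passed a test of PGCs against soma. At 24 and 36 hpf none of the 304530 windows did, so this result is not particular to the gaining windows. The paper, testing single CpGs and joining them into regions, did report regions that differed between PGCs and soma. edgeR's quasi-likelihood test, fitted to methylated and unmethylated counts of all 304530 windows, gave 0 gaining windows at a Benjamini-Hochberg adjusted p under 0.05 at 24 hpf (0% of all windows), 0 at 36 hpf (0% of all windows) and 0 for both stages averaged (0% of all windows). At an unadjusted p under 0.05 there were 48 gaining windows at 24 hpf (7.04%), against 3.77% of all windows. Of these, 47 were lower in PGCs. Among all windows, 1.02% were both under this p and lower in PGCs. At 36 hpf 5 gaining windows (0.733%) were under this p, against 2.15% of all windows. limma, on log2 ratios of methylated to unmethylated calls, also called 0 gaining windows at each stage and had 20 at an unadjusted p under 0.05 at 24 hpf (2.93%), against 2.08% of all windows. In the edgeR fit of all 16 libraries, gaining windows had an unadjusted p under 0.05 more often before the gain than at 24 hpf. No gaining window was called at these stages. This fit gave 93 at 4 hpf (13.6%), against 4.93% of all windows, 45 of them lower in PGCs. At 7 hpf it gave 88 (12.9%), against 3.58% of all windows, 70 of them lower in PGCs. A fit over the 8 libraries of 24 and 36 hpf gave 87 at 24 hpf (12.8%), against 4.56% of all windows. That fit holds no libraries of 4 or 7 hpf, so its share cannot be set directly beside the early ones. With limma over all 16 libraries there were 55 at 4 hpf (8.06%), against 3.49% of all windows. At 7 hpf limma had 73 (10.7%), against 2.67% of all windows, both more than its 20 at 24 hpf. Levels at 4 and 7 hpf were near the floor, and the methods call the 4 hpf replicates technical. The lower level in PGCs at 24 hpf is thus a pattern over many windows that share the same 4 libraries, which are not independent tests. The PGC libraries of 24 hpf were also the shallower ones, with a median of 290 calls per window in PGCs and 436 in soma, and the part of depth in the difference was not tested.

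The difference at 24 hpf was seen across kinds of gaining windows. It had a median of -6.22 points at the 212 windows with 10 to 12 CpGs, -5.67 points at the 329 with 13 to 20 CpGs and -5.18 points at the 141 with over 20 CpGs. The windows were also split by their 36 hpf level, which the rule used. The difference was -3.34 points at the 216 windows under 25% and -6.21 points at the 316 between 25% and 40%. At the 150 windows at 40% or more it was -11.1 points, and 145 were lower in PGCs. PGC and soma medians at 24 hpf were 12.8% and 17.0%, 20.6% and 25.8%, and 32.1% and 41.6% in these classes. The gap in points thus widened as the levels themselves rose. The share of the gain present at 24 hpf moved little between these sets, with medians of 72.9%, 74.1% and 78.6% for the low, middle and high 36 hpf levels.

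The 5 windows with the largest gain from 4 to 36 hpf, which selected them, stood at 63.2% to 73.5% at 36 hpf, below the median of 92.8% over all windows that entered the rule. At chr9:49076001-49076500 (danRer10, 12 shared CpGs) the 8 libraries of 4 and 7 hpf lay between 0 and 14.5%. At 24 hpf its level was 53.4% and 45.7% in PGCs, against 67.7% and 73.8% in soma. The 36 hpf level was 70.0% and 75.5% in PGCs, against 74.7% and 73.7% in soma. The PGC libraries were thus below the soma libraries at 24 hpf and overlapped them at 36 hpf. From 165 and 318 calls, the summed level at 24 hpf was 49.1% in PGCs (95% binomial interval, Wilson, 41.6% to 56.7%) and 70.8% in soma (65.5% to 75.5%). These intervals do not overlap, but they cover counting error only, and edgeR gave an unadjusted p of 0.0189 and an adjusted p of 1 at 24 hpf.

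A second window on chromosome 9, chr9:49075001-49075500 (12 CpGs), lay 500 bp from the first. It had 0 to 7.3% at 4 and 7 hpf, and at 24 hpf 42.2% and 40.1% in PGCs, against 55.6% and 53.0% in soma. At 36 hpf it had 72.3% and 54.1% in PGCs, against 63.7% and 56.1% in soma. Again the groups were apart at 24 hpf and overlapped at 36 hpf.

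The other windows among the 5 showed the same order of groups at 24 hpf. At chr24:6319001-6319500 (17 CpGs) the level at 24 hpf was 55.0% and 37.7% in PGCs, against 69.6% and 68.5% in soma, after 0 to 6.06% at 4 and 7 hpf. At 36 hpf it was 74.1% and 57.3% in PGCs, against 68.1% and 58.0% in soma. In this window the PGC libraries of 24 hpf differed from each other by more than the soma libraries did. At chr4:72933501-72934000 (11 CpGs) the level at 24 hpf was 48.0% and 32.6% in PGCs, against 63.1% and 53.1% in soma, and at 36 hpf 72.5% and 55.0% in PGCs, against 66.7% and 76.8% in soma. At chr13:38675001-38675500 (11 CpGs) it was 58.1% and 48.5% in PGCs, against 70.1% and 63.1% in soma at 24 hpf, and 71.3% and 68.5% in PGCs, against 69.1% and 63.9% in soma at 36 hpf. At both windows the PGC libraries were below the soma libraries at 24 hpf. Early levels of these windows reached 8.11% at the window of chromosome 4 and 11.8% at that of chromosome 13 in single libraries.

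The widest gaps between cell types at 24 hpf, among windows whose PGC and soma libraries did not overlap there, were found at windows with few calls. At chr8:48709501-48710000 (12 CpGs) the level at 24 hpf was 15.8% and 7.53% in PGCs (112 calls), against 58.5% and 40% in soma (81 calls). At 36 hpf it was 42.0% and 39.2% in PGCs, against 28.6% and 35.1% in soma, so the order was the opposite. At chr20:55274501-55275000 (10 CpGs) it was 14.3% and 22.0% in PGCs, against 55.6% and 47.8% in soma at 24 hpf, and 59.5% and 57.4% in PGCs, against 44.4% and 47.3% in soma at 36 hpf. This window turned round between the stages in the same way. Its early levels in single libraries already reached 28.1% in PGCs (4 hpf, replicate 2) and 10% in soma (7 hpf, replicate 2). At chr21:26094001-26094500 (11 CpGs) the sign at 24 hpf was the other one, with 70.8% and 41.7% in PGCs, against 34.1% and 20% in soma. At 36 hpf that window had 28.7% and 30.6% in PGCs, against 51.8% and 45.1% in soma. Its early levels reached 24.1% in PGCs (4 hpf, replicate 2) and 16.2% in soma (7 hpf, replicate 2). The unadjusted p of edgeR at 24 hpf was 0.000569, 0.0262 and 0.0603 at these windows and the adjusted p was 1 at each.

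Some windows at the extremes of timing rested on a single library or a single replicate. The smallest shares of the gain at 24 hpf, among windows with at least 100 calls at each stage, were 14.97% at chr24:42037001-42037500, 21.3% at chr19:4542501-4543000 and 23.5% at chr12:8111501-8112000. At 36 hpf the window of chromosome 24 had 24.9% and 2.22% in PGCs, against 49.2% and 0 in soma. The window of chromosome 19 had 3.93% and 9.29% in PGCs, against 48.5% and 2.68% in soma. At the first both cell types were high in replicate 1 and near 0 in replicate 2, and at the second replicate 1 of soma alone was high. The window of chromosome 12 had gained in all 4 libraries of 36 hpf, though PGC replicate 1 was already high at 24 hpf, with 17.8% and 5.23% in PGCs, against 8.89% and 5.88% in soma at 24 hpf, and 31.2% and 34.2% in PGCs, against 20.99% and 40.4% in soma at 36 hpf.

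The largest shares were 141% at chr8:39457001-39457500, 123% at chr16:44367501-44368000 and 122% at chr15:25085501-25086000, which were higher at 24 than at 36 hpf. At the window of chromosome 8 the 24 hpf level of replicate 1 was 46.2% in PGCs, against 51.8% in soma, while replicate 2 had 12.8% in PGCs, against 9.42% in soma. The tables thus differed there far more than the cell types did. Near the selection threshold, chr22:27944501-27945000 and chr25:35438001-35438500 gained 15.01 and 15.02 points and were included. Just outside it, chr5:39245501-39246000 and chr11:32300501-32301000 gained 14.998 and 14.96 points.

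The gaining windows held fewer CpGs at the median than the stable ones, a difference given as a description. The median number of shared CpGs was 15 at gaining windows (quartiles 12 and 19.75), 17 at stable windows (13 and 24) and 13 at all windows that entered the rule. Counted in the larger table, that of replicate 2, it was 19 at gaining and 20 at stable windows, a smaller gap. Gaining windows made up 3.07% of the unmethylated windows with 10 to 12 CpGs, 2.78% of those with 13 to 15, 2.32% with 16 to 20, 1.65% with 21 to 30 and 0.57% of those with more (17 of 2991). The size of the gain did not follow this order, with median gains between 24.995 and 26.3 points in the 5 classes. Coverage moved with CpG number as well, from 225 calls per CpG over all libraries in the class of fewest CpGs to 319 in that of most, and was 198 at gaining and 265 at stable windows. The part of coverage in the order was not tested.

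The level before the gain separated the sets more than CpG number did. Over the summed calls of 4 and 7 hpf, 27 of 24165 windows under 1% gained (0.11%), 161 of 3455 windows from 1% to 2.5% (4.66%), 252 of 1668 from 2.5% to 5% (15.1%) and 242 of 1158 from 5% to 10% (20.9%). The median level at 36 hpf was 19.25%, 25.05%, 29.4% and 34.9% in these classes. The early level is itself part of the rule, and since the gain is counted from the 4 hpf level, a window with a higher early level needs a higher level at 36 hpf to pass.

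**Figure D4:**
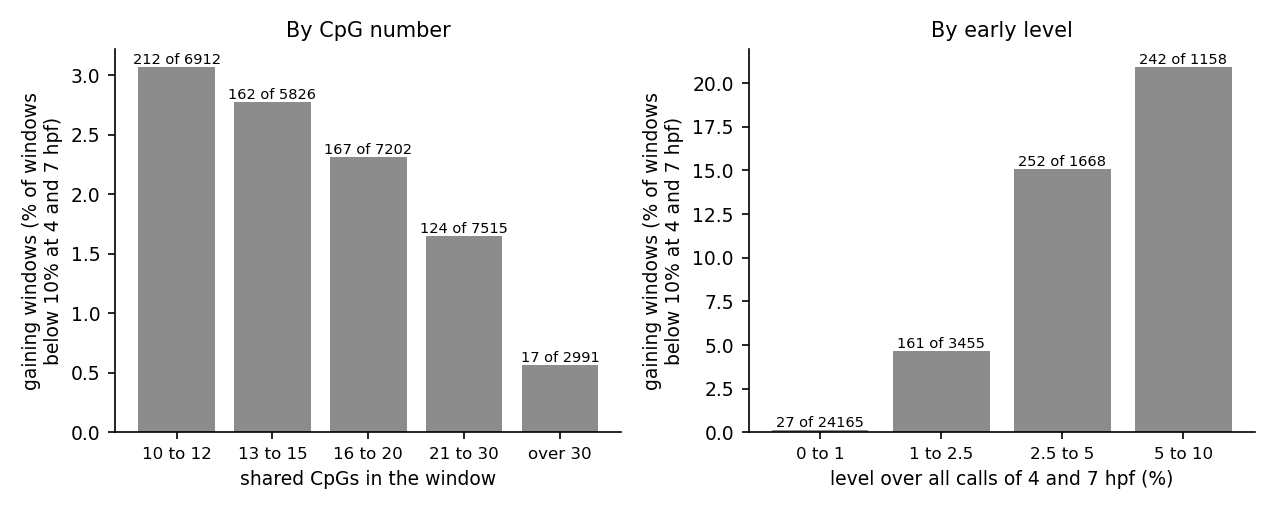
Gaining windows as a percentage of all windows below 10% at 4 and 7 hpf, by number of shared CpGs (left) and by the level over the calls of 4 and 7 hpf (right), with counts above the bars. The percentage lies between 3.07% for 10 to 12 CpGs and 0.57% for over 30, and between 0.11% under a level of 1% and 20.9% at 5% to 10%.

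Within a gaining window the methylation was spread over most CpGs. The windows held 11119 shared CpGs, of which 11115 had at least 10 calls at 36 hpf over the 4 libraries. Of these, 89.8% were at 10% or more at 36 hpf, against 9.48% at 4 and 7 hpf together. The window levels at these stages in the same libraries chose the windows, so this contrast follows in part from the rule. At 36 hpf the median CpG was at 27.7%, 18.7% of CpGs were at 50% or more and 0.44% were at 0. In 566 windows (83.0%) at least 80% of the CpGs were at 10% or more, and in 3 windows under 50% were.

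The gaining windows were scattered over the genome. All 25 chromosomes held some, from 16 on chromosome 17 to 45 on chromosome 7, and as a share of the unmethylated windows they ranged from 1.33% on chromosome 17 to 3.35% on chromosome 15. Another gaining window started within 5 kb of 199 of the 682 (29.2%), while another stable window did so for 76.5% of the stable windows. The stable windows outnumber the gaining ones, so these shares cannot be set against each other directly. Of the 974 windows that gained 5 to 15 points, 19.3% had another of their set within 5 kb. For 154 of the 682 gaining windows another gaining window was directly adjacent, so many of the near neighbours were parts of the same locus. Joined at 5 kb, the gaining windows formed 572 runs, of which 483 were single windows, 77 were pairs and 12 held 3 or more. Extending the distance to 20 kb raised the share with a near neighbour to 32.7%.

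The 3 runs with the most windows lay on chromosomes 9, 18 and 24, where of 2 runs tied at 4 windows the one with the larger mean gain was taken. The run at chr9:46773501-46786000 held 7 gaining windows with 110 shared CpGs over 12500 bp. Its mean level at 24 hpf was 31.4% and 24.6% in PGCs, against 34.6% and 31.7% in soma, and at 36 hpf 43.9% and 37.05% in PGCs, against 38.6% and 38.8% in soma. Gains within it ranged from 17.5 to 49.5 points, so neighbouring windows differed widely. The run at chr18:13476501-13482000 held 6 windows, with 18.2% and 30.02% in PGCs, against 30.9% and 35.6% in soma at 24 hpf, and 38.5% and 40.5% in PGCs, against 41.8% and 39.1% in soma at 36 hpf. The run at chr24:6317501-6323000 held 4 windows and the largest mean gain of the 3 runs, 56.0 points, with 42.0% and 36.9% in PGCs, against 54.9% and 53.4% in soma at 24 hpf. At 36 hpf it had 60.3% and 53.2% in PGCs, against 63.1% and 59.1% in soma. In all 3 runs both PGC means were below both soma means at 24 hpf, and 16 of their 17 windows were lower in PGCs.

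Gaining windows lay mostly in short unmethylated stretches. A stretch was taken as consecutive 500 bp windows below 10% over the calls of 4 and 7 hpf, each with at least 3 shared CpGs. It ended at a window of 10% or more, or at one with too few CpGs or calls to be measured. Both adjacent windows were measured for 283 of the 682 gaining and 14149 of the 28790 stable windows. A stretch of a single window was therefore not always bounded by methylated windows. The stretch around a gaining window had a median length of 1000 bp, against 1500 bp around a stable window, and a single window made up the whole stretch for 274 gaining windows (40.2%), against 12.7% of the stable ones. Where both adjacent windows were measured, neither was below 10% at 4 and 7 hpf for 24.4% of 283 gaining windows, against 2.35% of 14149 stable ones. An adjacent window at 50% or more lay beside 27.6% of these gaining windows and 22.8% of these stable ones, a smaller contrast. The mean early level of both neighbours had a median of 15.4% at gaining and 1.86% at stable windows. These values describe the sets and were not tested.

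The gain was not limited to the window itself. In stretches of several windows that held a gaining one, 46 of 320 consisted of gaining windows only. The other windows of these stretches, 419 in number, had median levels of 1.41% (4 hpf), 2.32% (7 hpf), 11.2% (24 hpf) and 15.2% (36 hpf). Adjacent windows, 441 before and 438 after, had median levels of 6.88% and 6.32% at 4 hpf and of 36.5% and 36.3% at 36 hpf. Adjacent windows that were gaining windows themselves, found at 154 of the 682, were not left out. These medians therefore include windows chosen for their gain. Beyond 1500 bp on either side the median window was at 93.0% or more at 4 hpf and between 89.3% and 92.1% at 36 hpf. These are medians over windows with at least 3 shared CpGs, and they do not weight a window by its calls. Over all shared CpGs in the 100 bp steps from 1500 to 3000 bp on either side, which include other unmethylated stretches, the level lay between 57.5% and 76.2% at 4 hpf and between 63.7% and 81.1% at 36 hpf, and was higher at 36 hpf in each step.

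**Figure D5:**
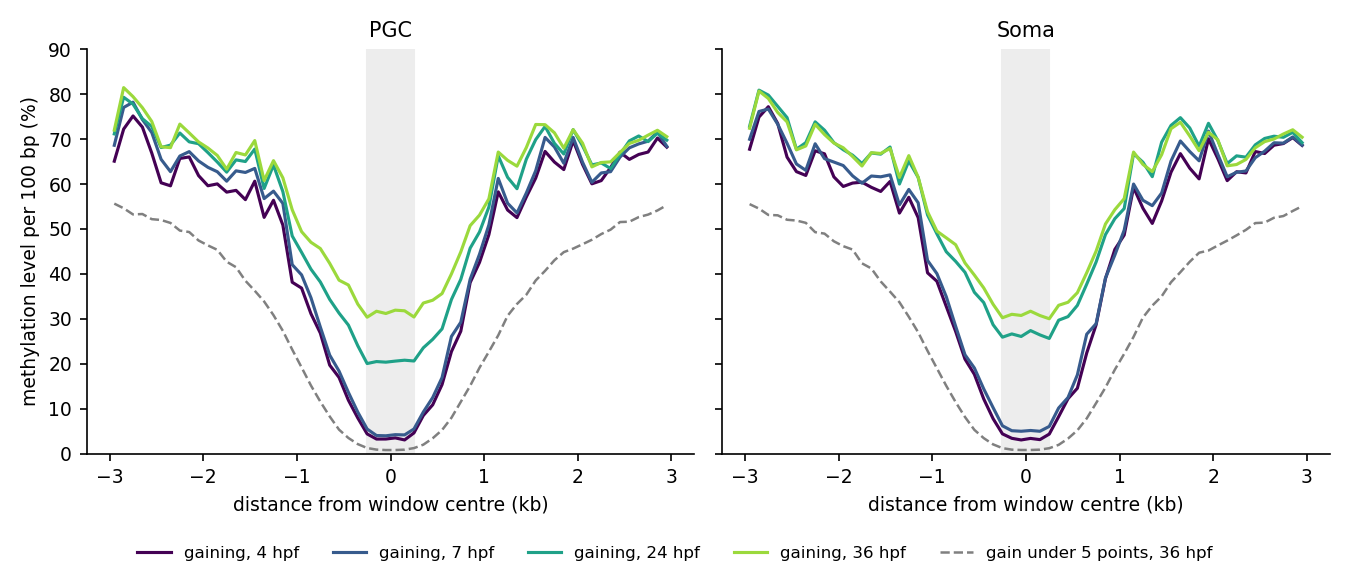
Methylation level (%) of shared CpGs in 100 bp steps against distance from the window centre in kb, in PGCs (left) and soma (right), with all calls of a step summed and the window shaded. In the 100 bp right of the centre the gaining windows are at 3.5%, 4.2%, 20.6% and 31.9% in PGCs and at 3.4%, 5.2%, 27.4% and 31.7% in soma, in the order of the stages, and the dashed line shows the stable windows at 36 hpf.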

How the data were processed

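PGCs and somatic cells of 4 stages were profiled by whole-genome bisulfite sequencing. Per the study's methods and the submitters' processing notes, the authors trimmed reads with fastp 0.12.5, mapped them with WALT to danRer10 with lambda DNA added, removed duplicates with Picard 2.3.0 and called CpGs with MethylDackel, merging strands. The deposited values are raw counts of methylated and of all calls at each CpG in each library, with a table for each replicate number, and no column lacked a sample. Each table lists CpGs covered in all its libraries, and only the 10260021 nuclear CpGs of both tables were used. The first base of a chromosome is printed as position 1.

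The labels gave the groups and replicate numbers, together with the table a library stands in. Calls were summed in windows of 500 bp. PGCs were compared with soma by edgeR 4.0.16 (R 4.3.3), with library terms, a common dispersion from 5000 evenly spaced windows and all windows tested, and by limma 3.58.1 with an offset of 2 calls as the alternative. Late against early calls were tested per table by Fisher's exact test (Python 3.11.15, numba 0.67.0). These tests were also run on simulated data. The simulated gap between PGCs and soma was wider than the median gap at the gaining windows. The calls simulated for Fisher's test had no spread between libraries. These runs therefore do not measure how the tests perform at the differences described here. Depth sets the precision, and intervals cover counting error only.

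The windows, their rule and all lists were chosen with earlier results of these data known. Named windows were the 5 largest gains, the 3 longest runs, the 3 widest gaps at 24 hpf with groups that did not overlap, the 3 smallest and 3 largest shares of the gain at 24 hpf with at least 100 calls a stage, and 2 windows on either side of the gain threshold. Alternatives changed the call minimum, CpG minimum, grid, weighting, thresholds, distances, test, replicate block and libraries. Genes, repeats and sequences at the windows were not analysed here.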

Additional observations from a re-analysis of the deposited data

How the results depend on the processing

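Each group had 2 libraries. At 24 hpf, at 36 hpf and for both averaged, no window reached an adjusted p under 0.05 between PGCs and soma in any of 13 fits of each contrast, with edgeR or limma. Leaving out each library of 24 and 36 hpf in turn left 30 to 52 gaining windows at an unadjusted p under 0.05 at 24 hpf, against 3.48% to 5.06% of all windows. The 30 (4.40%) were left without soma replicate 1 of 24 hpf, against 3.61% of all windows. A fit over the 8 libraries of 24 and 36 hpf gave 87 (12.8%), against 4.56% of all windows. The number of gaining windows was 353 with at least 15 CpGs and 364 below 5% at 4 and 7 hpf, and 550 to 658 when either replicate was left out. The median PGC minus soma level at 24 hpf was -6.97 points for gains of 20 points or more and -5.06 points below 5%, and lay between -5.69 and -5.16 points without either replicate. Leaving out single libraries, chosen after seeing the data, gave -6.81 to -4.81 points at 24 hpf and -1.23 to 1.71 points at 36 hpf, where the sign turned without PGC replicate 1. It also turned without replicate 1 of all groups (-1.51 points). The median CpG number was 19 with at least 15 CpGs and 19 when CpGs of the larger table were counted, and 15 to 16 without either replicate. The share of windows with another within 5 kb was 18.4% with at least 15 CpGs, 21.4% below 5%, and 20.9% to 28.3% without either replicate. The share of the gain present at 24 hpf was 78.5% for windows chosen in replicate 2 and measured in replicate 1, and 72.7% to 76.2% without either replicate. Where fewer windows pass a stricter rule these changes follow from it in part, and otherwise the cause was not tested.

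The replicate number, which the labels do not tie to a shared batch, was added as a replicate block. It left 0 gaining windows called and gave 64 at an unadjusted p under 0.05 at 24 hpf (9.38%), against 4.25% of all windows, 61 of them lower in PGCs. Over gaining windows, the difference between replicates in PGCs correlated with that in soma with r of -0.07 (4 hpf), 0.33 (7 hpf), 0.28 (24 hpf) and 0.39 (36 hpf). Over all windows r was 0.004 (4 hpf), 0.31 (7 hpf), 0.31 (24 hpf) and 0.24 (36 hpf). These values are given as a description across windows of the same libraries.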

Other observations

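Windows with a level between 10% and 30% at both 4 and 7 hpf were not part of the rule. Of 1971 such windows, 563 gained 15 points or more by 36 hpf, with medians of 16.7% (4 hpf), 20.97% (7 hpf), 39.4% (24 hpf) and 45.7% (36 hpf). At 24 hpf PGCs had a median of 35.6% and soma one of 41.8%, and PGC minus soma had a median of -4.47 points in replicate 1 and -6.09 points in replicate 2. At 36 hpf PGCs had 45.7% and soma 46.2%. Of the gain of these 563 windows, a median share of 76.3% was present at 24 hpf. At the windows that gained 5 to 15 points this share was 65.7%.

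Windows that lost methylation were set beside those that gained it. Of 266264 windows at 70% or more at 4 and 7 hpf, 7156 lost 20 points or more by 36 hpf, and the median share of the loss present at 24 hpf was 59.9%. At 24 hpf their PGC median was 79.2% and their soma median 76.2%, and at 36 hpf PGCs had 62.9% and soma 64.97%. At 24 hpf 26.8% of these windows were lower in PGCs, against 86.2% of the gaining windows and 41.4% of all windows. The windows that lost methylation were chosen by their levels at 4, 7 and 36 hpf too. None of these differences was tested.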
